A study of Homo sapiens with 9 samples.

Results

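The genes described here are the Wnt ligands, their Frizzled and LRP receptors, the secreted proteins that block them, and the intracellular AXIN, beta-catenin and TCF/LEF factors. They were chosen by symbol from the platform annotation, which paired 61 probe sets with exactly 1 such gene. These measured 37 genes of the 11963 genes with a probe set of their own, and the brightest probe set over all 9 arrays stood for each gene. AXIN2 and TCF7 had no such probe set and were not analysed here. The genes were 13 Wnt ligands, 9 Frizzled receptors, 2 LRP co-receptors, 4 secreted Frizzled-related proteins, 5 other secreted antagonists, AXIN1, and 3 genes for beta-catenin and TCF/LEF factors.

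Wnt proteins are secreted signals that bind Frizzled receptors together with the co-receptors LRP5 and LRP6. In the canonical branch this stops the AXIN-containing destruction complex from degrading beta-catenin, which then works with TCF/LEF factors on target genes. Other Wnts, WNT5A among them, act largely without beta-catenin. Secreted Frizzled-related proteins and WIF1 bind Wnts, whereas Dickkopf proteins bind LRP co-receptors. In the neural crest, from which sympathetic neurons and neuroblastoma derive, Wnt signals take part in induction and migration.

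RNA came from IMR-32, a human neuroblastoma cell line with amplified MYCN and neuronal properties. Choline acetyltransferase, the enzyme that makes acetylcholine, was expressed stably as its 69-kDa form in 1 line (69CHAT, 3 arrays) and as its 82-kDa form in another (82CHAT, 3 arrays), and 3 further arrays were labelled wild type (WT). The study asked which genes each form changes. Whether a line was 1 clone or a pool is not given in the sources used here. Because only 1 line carried each form, an effect of the form and a property of the line cannot be told apart. The 3 arrays per group are biological replicates by the series design.

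The arrays labelled WT went against their label. MYCN read 4181, 5567 and 5947 in 69CHAT and 4301, 6025 and 6118 in 82CHAT, against 62.5, 120.5 and 99.97 in WT. The summed intensity of 11 noradrenergic neuroblastoma markers was 10610 to 17634 in 69CHAT and 13348 to 20133 in 82CHAT, against 1611 to 1846 in WT, and 8 of the 11 were higher in each line by the limma test described below. The sum of 9 epithelial markers was 457 to 505 in 69CHAT and 455 to 507 in 82CHAT, against 5912 to 6680 in WT, with 7 of 9 lower in each line. Among 11 mesenchymal markers the sum was 5859 to 9544 in 69CHAT and 5753 to 9136 in 82CHAT, against 12545 to 13799 in WT, with 2 higher in each line and 2 (69CHAT) or 3 (82CHAT) lower. For 4 Schwann or glial markers it was 268 to 357 in 69CHAT and 269 to 408 in 82CHAT, against 270.1 to 309 in WT, with 1 lower in each line. The tyrosine hydroxylase gene TH, a defining noradrenergic marker, stayed at 38.8 to 55.8 on all arrays. CHAT itself read 256, 175 and 177 in 69CHAT and 1066, 423 and 1067 in 82CHAT, against 148, 125 and 114 in WT. It was 6.11-fold higher in 82CHAT than in WT (limma adjusted p = 0.00057), while the 69CHAT difference of 0.64 on the log2 scale did not pass (adjusted p = 0.226). Every difference from WT below is therefore a difference from arrays that also differ in these lineage markers, and the part of those markers in it was not tested.

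All values are intensities on a linear scale. Differences are on the log2 scale, tested with limma over all 9 arrays and all 22215 probe sets, and a gene is called where its Benjamini-Hochberg adjusted p is under 0.05. In 69CHAT against WT, 13 of the 37 genes were called, where 29.4% of all 11963 genes by their brightest probe set and 26.2% of all probe sets were called. Of the 13, 5 were higher (11.7% of all genes) and 8 lower (17.7%). In 82CHAT against WT, 14 were called, against 30.3% of all genes and 26.8% of all probe sets, 6 of them higher (11.8% of all genes) and 8 lower (18.5%). In each comparison the arrays of the groups did not overlap for 17 of the 37 genes, where this held for 47.2% of all genes in 69CHAT and 45.7% in 82CHAT. The same 13 genes were called in both, in the same direction, and WNT6 was the only addition, in 82CHAT. Both comparisons share the 3 WT arrays. The median log2 difference of the 37 genes was 0.01 in 69CHAT and 0.00 in 82CHAT, against 0.05 in each over all genes. Of the called genes, 9 differed by at least 2-fold in 69CHAT and 10 in 82CHAT, where 10.5% and 10.4% of all genes were called with such a difference.

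The higher genes were the antagonists DKK1, FRZB and SFRP1 and the receptors FZD2 and FZD3. The lower ones were WNT5A, the receptors FZD1, FZD6, FZD7 and FZD10, the antagonist WIF1 and the factors LEF1 and TCF7L2. Fewer cells of a type and less RNA per cell cannot be told apart in such bulk samples. An intensity under 55.9 (the smallest of the 9 lower quartiles) is called near background here, and 6 of the 37 genes stayed under it on all arrays.

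**Figure D1:**
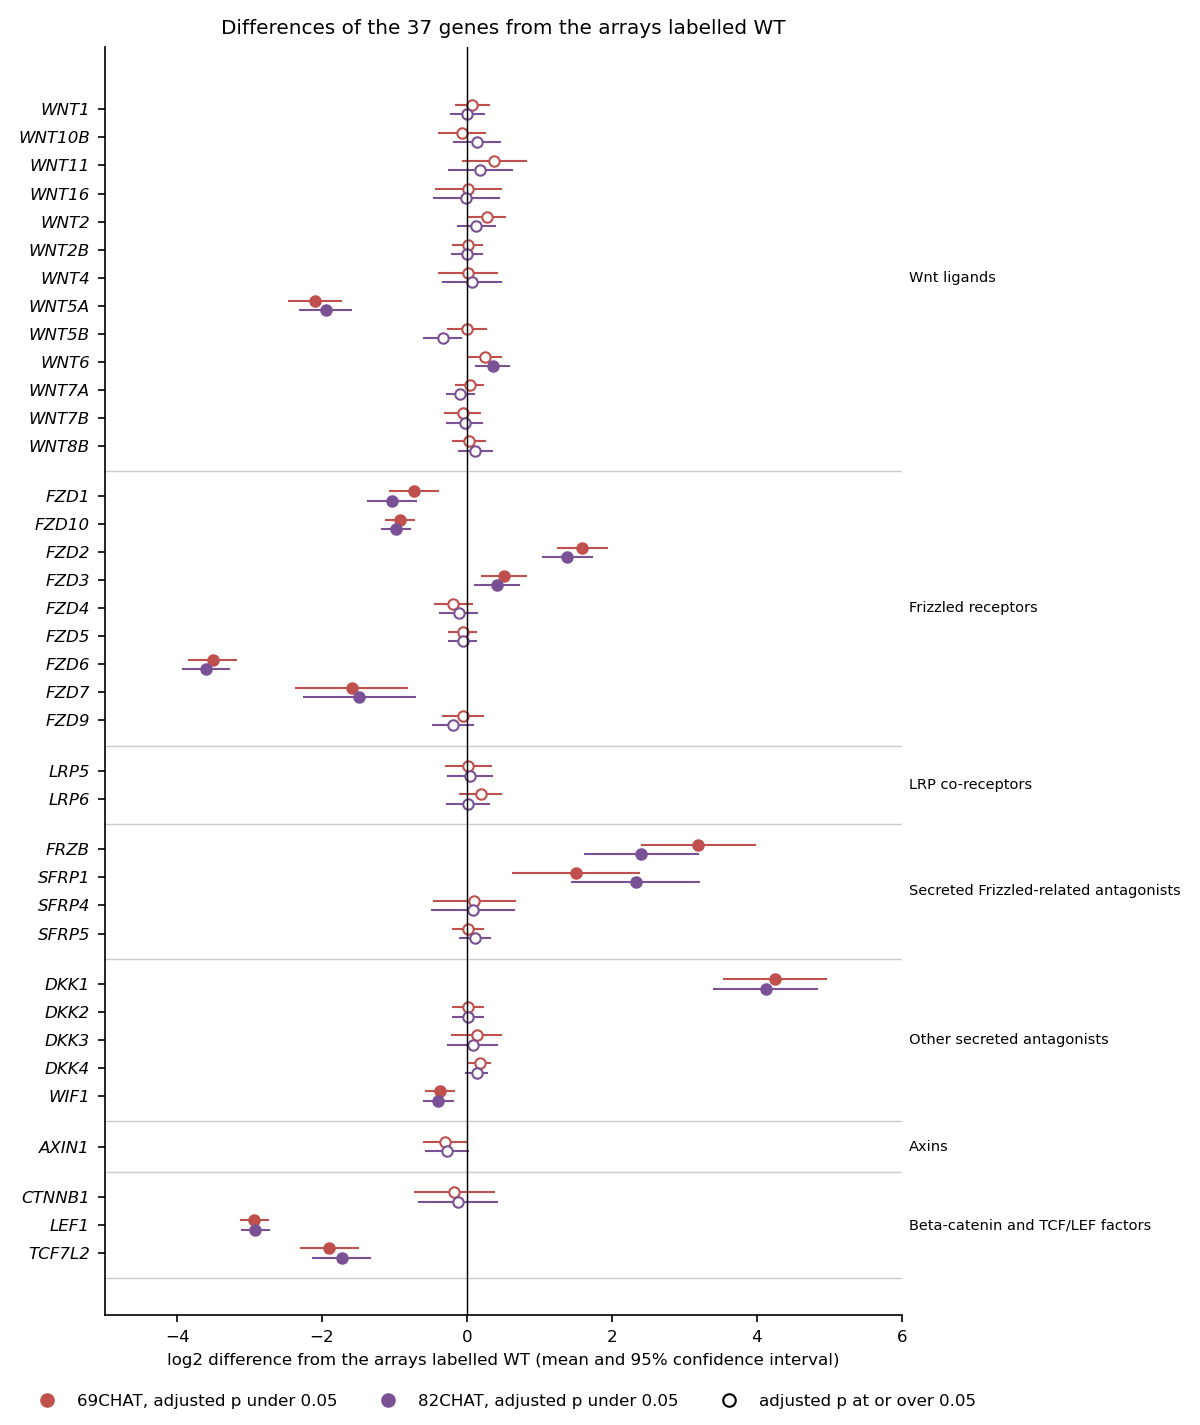
The log2 difference of each of the 37 genes from the arrays labelled WT, with its 95% confidence interval, for 69CHAT and 82CHAT (n = 3 arrays each). Filled points have a limma adjusted p under 0.05. DKK1 lies farthest to the right at 4.25 and 4.12, FZD6 farthest to the left at -3.51 and -3.60, and most Wnt ligands lie near 0.

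DKK1, a secreted antagonist that binds LRP5 and LRP6 and is itself known as a target of beta-catenin, had the largest difference of the 37. The stretch before its start is shown because, of the 24 genes with a promoter to search, only DKK1 held the TCF/LEF core letters. The other members were not searched. The FRZB stretch, from the antagonist with the next largest rise, is set beside it. Both are the 250 bases upstream of the annotated start, from RefSeq on build GRCh38.p14, 5′ to 3′ on the gene's strand, at chr10:52314031-52314280 (plus strand) for DKK1 and chr2:182866638-182866887 (minus strand) for FRZB. Capitals mark matches to CTTTGA on either strand.
DKK1: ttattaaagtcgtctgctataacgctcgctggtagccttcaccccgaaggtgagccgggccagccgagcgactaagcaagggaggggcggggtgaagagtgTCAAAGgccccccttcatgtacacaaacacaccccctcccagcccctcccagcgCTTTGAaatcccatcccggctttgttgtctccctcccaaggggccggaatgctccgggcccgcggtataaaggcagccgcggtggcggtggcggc
FRZB: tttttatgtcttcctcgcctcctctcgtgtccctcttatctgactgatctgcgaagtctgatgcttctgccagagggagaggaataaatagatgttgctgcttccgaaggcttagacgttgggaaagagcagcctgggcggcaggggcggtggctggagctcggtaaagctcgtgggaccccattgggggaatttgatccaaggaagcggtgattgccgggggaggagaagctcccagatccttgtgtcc
The DKK1 stretch holds 2 matches, beginning 149 and 95 bases before the start. The RefSeq table held 29 promoters for 24 of the 37 genes, and 1 of the 29 (3.45%) had a match, against 11.2% of all 35116 promoters of this length. The E-box CACGTG, searched on both strands, had 0 matches among the 29 and was in 6.34% of all promoters. The motifs do not overlap each other, and a match is a description of letters, not of binding.

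DKK1 read 914, 1148 and 2169 in 69CHAT and 914, 1430 and 1341 in 82CHAT, against 57.1, 75.0 and 77.5 in WT. Every array of either line stood above every WT array. The difference was 4.25 (SE 0.31, 19.0-fold, adjusted p = 1.96e-05) in 69CHAT and 4.12 (SE 0.31, 17.4-fold, adjusted p = 2.35e-05) in 82CHAT. The other Dickkopf genes gave no call. DKK2 stayed at 18.0 to 20.9 and DKK3, measured by 5 probe sets, had its brightest at 31.6 to 47.1, all near background. DKK4 differed by 0.17 (adjusted p = 0.0896) and 0.13 (adjusted p = 0.181).

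FRZB, a secreted Frizzled-related protein that binds Wnts, was also higher in both lines. It read 282, 790.0 and 693 in 69CHAT and 385, 268 and 291 in 82CHAT, against 57.8, 60.9 and 57.3 in WT. The groups did not overlap with WT, and the difference was 3.19 (SE 0.34, 9.15-fold, adjusted p = 0.000182) in 69CHAT and 2.41 (SE 0.34, 5.30-fold, adjusted p = 0.000908) in 82CHAT. Its second probe set gave 3.74 and 3.09 (adjusted p = 0.000282 and 0.000844).

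SFRP1, another Wnt-binding antagonist of the same family, read 385, 542 and 817 in 69CHAT and 522, 1332 and 1360 in 82CHAT, against 199.9, 185 and 202 in WT. Again no array of either line overlapped with WT. The difference was 1.50 (SE 0.38, 2.84-fold, adjusted p = 0.0188) in 69CHAT and 2.33 (SE 0.38, 5.02-fold, adjusted p = 0.00205) in 82CHAT. The 69CHAT call did not hold without any single one of 5 arrays, namely replicates 2 and 3 of 69CHAT (adjusted p = 0.0538 and 0.0659) and each WT array (0.0526 to 0.0606). A second probe set passed in both lines (1.36 and 2.04), and the dimmest passed in 82CHAT (1.44, adjusted p = 0.0282) with 0.78 in 69CHAT (adjusted p = 0.213). SFRP4 and SFRP5 differed by 0.01 to 0.11 in either line and were not called, and SFRP5 read at most 51.2 on any array.

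WIF1, a Wnt-binding protein unrelated to the Frizzled-related family, was called lower but lay near background throughout. It read 29.6, 26.5 and 27.4 in 69CHAT and 29.3, 27.2 and 25.8 in 82CHAT, against 34.6, 38.8 and 34.9 in WT. The difference was -0.37 (adjusted p = 0.0118) in 69CHAT, lost without replicate 2 of that line (0.0558), and -0.39 (adjusted p = 0.00917) in 82CHAT. Of the 9 secreted antagonists, then, 3 were higher and 1 lower in each line, and the 3 higher ones had the largest positive differences from WT of all 37 genes in 82CHAT, while in 69CHAT FZD2 stood above SFRP1.

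**Figure D2:**
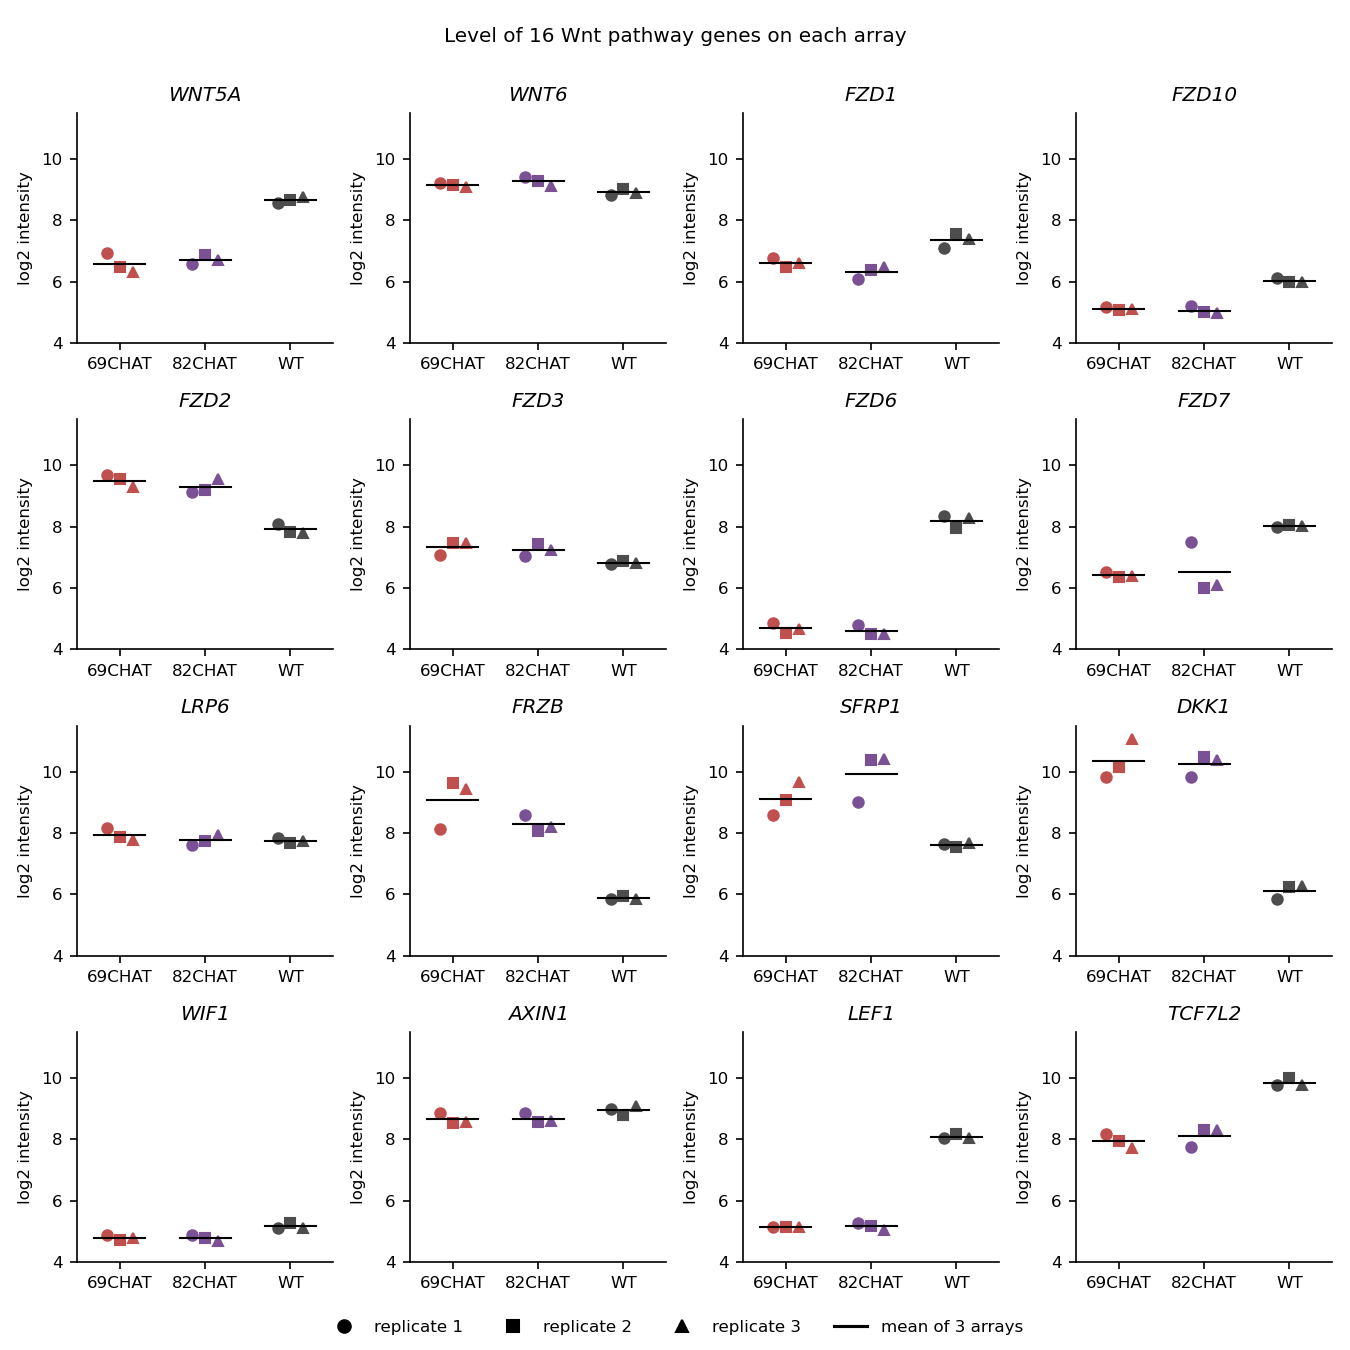
The log2 intensity of 16 genes on each of the 9 arrays, in 69CHAT, 82CHAT and WT, with 1 symbol per replicate number and a bar for the group mean. Neither line overlaps with WT for 14 of the genes, whereas LRP6 and AXIN1 overlap with it. The 14 are shown because they were called in at least 1 comparison, so this count follows largely from the choice. Over all genes the arrays did not overlap with WT for 47.2% in 69CHAT and 45.7% in 82CHAT.

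The Frizzled receptors moved both ways, with 2 of 9 higher and 4 lower in each line by their brightest probe sets. FZD6, a receptor of the planar polarity branch, read 29.0, 23.3 and 25.4 in 69CHAT and 27.9, 22.8 and 22.3 in 82CHAT, against 328, 248 and 312 in WT. It was about 11.4-fold lower in 69CHAT (difference -3.51, SE 0.14, adjusted p = 5.83e-07) and about 12.1-fold lower in 82CHAT (-3.60, SE 0.14, adjusted p = 5.16e-07), with both lines near background. FZD2 went the other way. It read 815, 745 and 627 in 69CHAT and 561, 584 and 754 in 82CHAT, against 272, 228 and 223 in WT. The difference was 1.59 (SE 0.15, 3.02-fold, adjusted p = 7.76e-05) and 1.39 (SE 0.15, 2.61-fold, adjusted p = 0.000172).

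FZD7 read 91.9, 81.6 and 84.6 in 69CHAT and 179.7, 64.3 and 68.3 in 82CHAT, against 251, 264 and 262 in WT. Replicate 1 of 82CHAT was well above the other arrays of both lines and still below WT. The gene was 3.01-fold lower in 69CHAT (-1.59, SE 0.34, adjusted p = 0.00749) and 2.80-fold lower in 82CHAT (-1.49, SE 0.34, adjusted p = 0.0106). Its dimmer probe set gave -0.99 (adjusted p = 0.0471) and -0.85 (adjusted p = 0.0799), with replicate 1 of 82CHAT inside the WT range.

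FZD1 read 109, 88.5 and 98.1 in 69CHAT and 68.0, 82.6 and 89.0 in 82CHAT, against 137, 186 and 168 in WT. It was 1.66-fold lower in 69CHAT (-0.73, adjusted p = 0.00567) and 2.05-fold lower in 82CHAT (-1.04, adjusted p = 0.00086), but its dimmer probe set gave only -0.17 and -0.30 (adjusted p = 0.498 and 0.231). FZD10 read 33.5 to 35.9 in 69CHAT and 31.3 to 36.4 in 82CHAT, against 63.1 to 68.9 in WT. Its fall, about 1.89-fold and 1.97-fold (adjusted p = 7.84e-05 and 5.55e-05), was thus to the range near background. FZD3, a receptor with known roles in axon tracts, read 134, 176 and 175 in 69CHAT and 133, 172 and 149 in 82CHAT, against 109, 118 and 112 in WT. It was 1.42-fold higher in 69CHAT (0.51, adjusted p = 0.0212) and 1.34-fold in 82CHAT (0.42, adjusted p = 0.048). Both FZD3 calls were near the threshold and depended on single arrays. The 69CHAT call did not hold without its replicate 2 or 3 or WT replicate 1 or 3 (adjusted p = 0.0642 to 0.0849). The 82CHAT call did not hold without replicate 2 or 3 of either line or any WT array (adjusted p = 0.0593 to 0.161).

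FZD4, FZD5 and FZD9 were not called by their brightest probe sets. For FZD5 the probe sets disagreed. The brighter one read 76.0 to 81.4 in 69CHAT and 73.4 to 84.0 in 82CHAT, against 78.9 to 86.1 in WT. The dimmer one read 25.3, 27.4 and 28.2 in 69CHAT and 27.5, 30.3 and 26.3 in 82CHAT, against 135, 149.6 and 132 in WT. By the dimmer one FZD5 was about 5.16-fold lower in 69CHAT (adjusted p = 4.09e-07) and about 4.97-fold lower in 82CHAT (adjusted p = 4.84e-07). On the WT arrays this probe set read higher than the other, and it was dimmer only over all arrays. The missing FZD5 call thus rests on which probe set stood for the gene. The co-receptors LRP5 and LRP6 were not called. LRP6 read 286, 236 and 216 in 69CHAT and 194, 215 and 242 in 82CHAT, against 228, 203 and 212 in WT, a difference of 0.19 (95% interval -0.10 to 0.47) and 0.01 (-0.27 to 0.30).

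**Figure D3:**
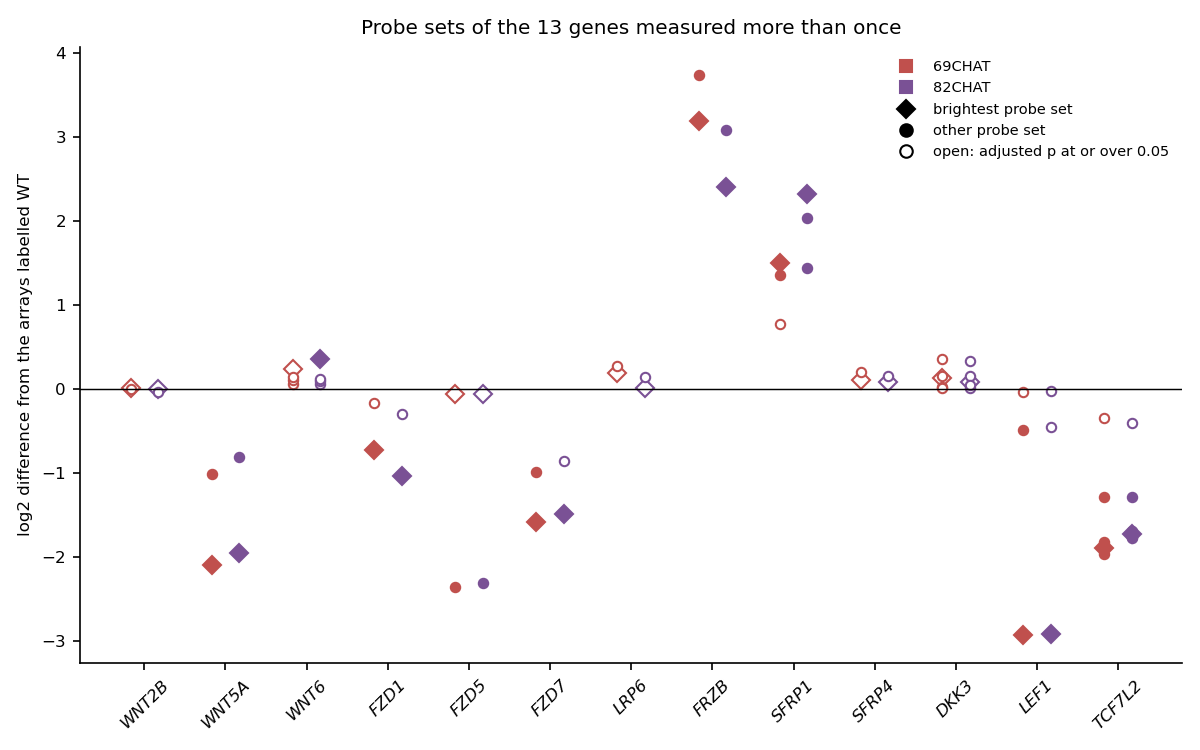
Log2 differences from the arrays labelled WT for every probe set of the 13 genes measured by more than 1, in 69CHAT and 82CHAT (n = 3 arrays each). Filled symbols have a limma adjusted p under 0.05 and diamonds mark the brightest probe set. FRZB and WNT5A have every probe set called in the same direction in both lines, and no gene has probe sets called both ways. FZD5 and LEF1 hold probe sets near 0 beside probe sets under -2.

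Among the ligands WNT5A was the 1 gene lower in both lines. It read 121, 89.4 and 79.3 in 69CHAT and 94.7, 117 and 105 in 82CHAT, against 380.0, 405 and 435 in WT. The fall was 4.27-fold in 69CHAT (-2.09, SE 0.16, adjusted p = 2.20e-05) and 3.86-fold in 82CHAT (-1.95, SE 0.16, adjusted p = 3.42e-05). Its dimmer probe set fell too, by 1.01 and 0.81 on the log2 scale (adjusted p = 0.000105 and 0.000362). WNT6 read 596, 569 and 547 in 69CHAT and 685, 627 and 549.6 in 82CHAT, against 455, 519 and 475 in WT. The 82CHAT difference of 0.36 passed (1.28-fold, adjusted p = 0.0274) and the 69CHAT difference of 0.24 did not (adjusted p = 0.118). The 3 other WNT6 probe sets differed by 0.05 to 0.14 and were not called, and the mean over all 4 gave 0.16 in 82CHAT (adjusted p = 0.21). The 82CHAT call did not hold without replicate 1 or 2 of 82CHAT or WT replicate 1 or 3 (adjusted p = 0.0654 to 0.0864).

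The remaining 11 ligands, WNT1, WNT2, WNT2B, WNT4, WNT5B, WNT7A, WNT7B, WNT8B, WNT10B, WNT11 and WNT16, were called in neither line. In 82CHAT they differed by -0.34 (WNT5B) to 0.18 (WNT11), and in 69CHAT by -0.07 (WNT10B) to 0.38 (WNT11). WNT5B, the close relative of WNT5A, read 113, 122 and 133 in 69CHAT and 85.1, 98.5 and 108 in 82CHAT, against 117, 116 and 134 in WT. Its 82CHAT difference of -0.34 had an adjusted p of 0.0584, and of 0.00675 with the replicate number as a block. The block also brought WNT2 in 69CHAT past the threshold (0.27, adjusted p = 0.0355, against 0.116 without it). WNT1 and WNT7B lay near background on all arrays.

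LEF1, a TCF/LEF factor that is itself a known beta-catenin target, had the smallest adjusted p of the 37 genes. It read 35.6, 35.0 and 35.6 in 69CHAT and 38.2, 36.3 and 32.6 in 82CHAT, against 264, 286 and 262 in WT. It was about 7.63-fold lower in 69CHAT (-2.93, SE 0.08, adjusted p = 8.89e-08) and about 7.58-fold lower in 82CHAT (-2.92, SE 0.08, adjusted p = 8.94e-08). The other LEF1 probe sets were dim. The brighter read 55.5 to 62.7 on all arrays and differed by -0.03 and -0.02, and the other gave -0.50 (adjusted p = 0.0389) and -0.45 (adjusted p = 0.0551).

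TCF7L2, another TCF/LEF factor, read 287, 248 and 211 in 69CHAT and 216, 314 and 314 in 82CHAT, against 874, 1024 and 867 in WT. It was 3.72-fold lower in 69CHAT (-1.90, SE 0.17, adjusted p = 6.58e-05) and 3.31-fold lower in 82CHAT (-1.73, SE 0.17, adjusted p = 0.000113). Of its 6 probe sets, 5 were called lower in each line, with differences of -1.97 to -1.29, and the other gave -0.35 and -0.41 without a call. TCF7L1, a further TCF/LEF factor that the selection by symbol did not take in and that is named after its values were seen, went the other way. It read 308, 262 and 265 in 69CHAT and 376, 279.8 and 289 in 82CHAT, against 201, 191 and 171 in WT. It was 1.48-fold higher in 69CHAT (adjusted p = 0.0121) and 1.66-fold higher in 82CHAT (adjusted p = 0.00316), so the measured TCF/LEF factors moved both ways. CTNNB1, the beta-catenin gene, read 764, 1020 and 1093 in 69CHAT and 658, 1157 and 1242 in 82CHAT, against 993, 1156 and 1066 in WT. The groups overlapped, and the difference was -0.17 (95% interval -0.72 to 0.37) and -0.12 (-0.67 to 0.42). AXIN1, a scaffold of the destruction complex, read 462, 373 and 382 in 69CHAT and 468, 379.9 and 387 in 82CHAT, against 513, 440.0 and 543 in WT. It was not called (-0.30 and -0.28, adjusted p = 0.133 and 0.155), but passed in both lines with the replicate number as a block (adjusted p = 0.0342 and 0.0428).

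Between the lines, 82CHAT against 69CHAT, 0 of the 37 genes were called by limma, where 0% of all probe sets were. CHAT itself was 3.93-fold higher in 82CHAT than in 69CHAT and was not called either (limma adjusted p = 0.704). The lack of calls therefore does not show that the lines were alike. WNT5B (-0.34) and FRZB (-0.79) had an unadjusted limma p under 0.05 and were not called after adjustment. The share of all genes under that unadjusted threshold was not worked out, so neither is read as a difference between the lines. The arrays of the 2 lines did not overlap for 1 gene, WNT5B, where this held for 6.87% of all genes. The differences ranged from -0.79 to 0.82, with 31 of the 37 under 0.2 in size. The 95% intervals reached from -1.57 for FRZB to 1.70 for SFRP1, so differences of that size lie within the intervals.

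FRZB and SFRP1 differed most between the lines, in opposite directions, and for FRZB the direction depended on the replicate number. Same-numbered arrays of FRZB differed by 0.45 (82CHAT minus 69CHAT) in replicate 1, and by -1.56 and -1.25 in replicates 2 and 3. Its second probe set gave 1.09, -1.54 and -1.51. So FRZB was higher in 82CHAT in replicate 1 and lower in the other replicates. In replicates 2 and 3 alone the difference was -1.41 (SE 0.09, limma adjusted p = 0.00187), where 2.04% of all probe sets were called, and FRZB was the 1 gene of the 37 that passed. That subset leaves out the replicate in which FRZB went the other way, and FRZB was picked from these same arrays. Its p-value there is thus no separate support. SFRP1 gave 0.44, 1.30 and 0.73 in replicates 1 to 3 by its brightest probe set. It was thus higher in 82CHAT in every same-numbered pair, and in replicates 2 and 3 alone its adjusted p was 0.0503. With the replicate number as a block the adjusted p was 0.767 for FRZB and 0.67 for SFRP1.

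**Figure D4:**
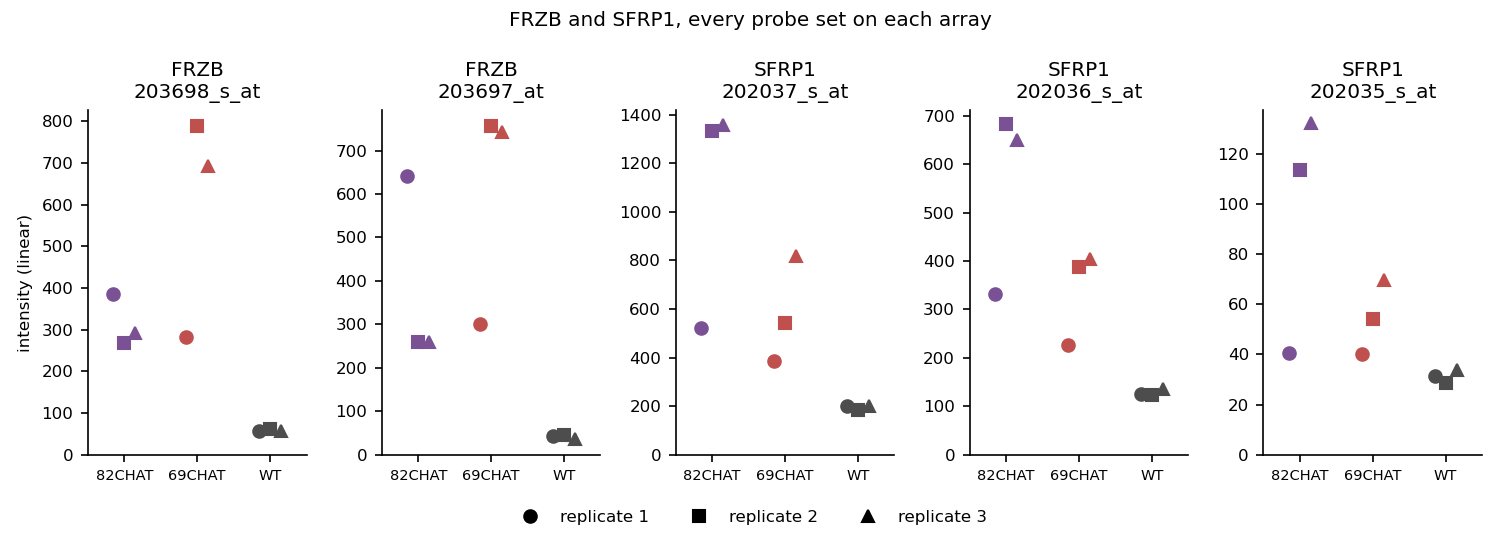
Intensity of FRZB (2 probe sets) and SFRP1 (3 probe sets) on each array of 82CHAT, 69CHAT and WT, on linear axes that start at 0, with 1 symbol per replicate number. Replicates 2 and 3 of FRZB lie lower in 82CHAT than in 69CHAT, replicate 1 lies higher, and the brightest SFRP1 probe set lies higher in 82CHAT for each number.

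A further 72 genes of the pathway, in 5 lists of symbols, were read on the same arrays. Of these, 12 were higher and 18 lower in 69CHAT, and 11 were higher and 17 lower in 82CHAT. Over all genes 11.7% were higher and 17.7% lower in 69CHAT, and 11.8% were higher and 18.5% lower in 82CHAT, and the counts of each list below are to be read against these shares. The list of Wnt secretion and receptor turnover held 18 genes, of which 8 were measured. The R-spondin genes, PORCN, NOTUM and ZNRF3 were among those without a probe set of their own. Of the 8 measured genes, 0 were higher and 6 lower in each line. Their median difference was -0.85 in 69CHAT and -0.99 in 82CHAT, against 0.05 over all genes. GPC3 and GPC4, cell surface glypicans, were 3.91-fold and 2.82-fold lower in 69CHAT (adjusted p = 5.84e-05 and 1.87e-05) and 4.38-fold and 2.85-fold lower in 82CHAT (adjusted p = 3.72e-05 and 1.78e-05). LGR5, an R-spondin receptor, was 1.61-fold and 1.42-fold lower by its brightest probe set, with -2.40 and -2.02 by the other. RNF43, an E3 ligase that clears Frizzleds from the membrane, was 1.57-fold and 1.76-fold lower. TPBG, a membrane protein described as a Wnt inhibitor, was chosen after its values were seen. It read 114, 72.7 and 64.8 in 69CHAT and 306, 78.0 and 50.8 in 82CHAT, against 1157, 1268 and 1323 in WT, and was 15.3-fold and 11.7-fold lower (adjusted p = 0.00094 and 0.00169).

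The list of co-receptors and polarity genes had 1 of 13 higher and 2 lower in each line (median difference -0.05 and -0.10). VANGL1 and CELSR1, both of the planar polarity branch, were 3.12-fold and 2.28-fold lower in 69CHAT and 3.44-fold and 2.25-fold lower in 82CHAT, while the neuronal relative CELSR3 was 1.89-fold and 1.66-fold higher. The 2 dimmer CELSR1 probe sets were not called and did not agree in sign. Dishevelled and the destruction complex had 5 of 19 higher and 4 lower in 69CHAT, and 4 higher and 4 lower in 82CHAT (median difference -0.03 and 0.10). DVL1, which relays the signal from Frizzled, was 2.52-fold and 2.44-fold lower, and FRAT2, a GSK3-binding protein, was 2.23-fold and 2.28-fold lower. TNKS2, a tankyrase that turns over axins, was 1.87-fold and 2.23-fold lower. The other tankyrase, TNKS, named after its values were seen, was 1.50-fold and 1.52-fold higher by its brightest probe set (adjusted p = 0.0139 and 0.0113), while its 2 dimmer probe sets were not called. APC2, a relative of APC found mainly in neural tissue, was 2.25-fold and 2.14-fold higher by its brighter probe set (0.30 in each line by the other, not called).

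Nuclear cofactors and corepressors had 4 of 16 higher and 3 lower in 69CHAT, and 4 higher and 2 lower in 82CHAT (median difference -0.14 and -0.15). TLE1, a Groucho-type corepressor of TCF factors, read 151, 132 and 114 in 69CHAT and 201, 160.0 and 159.9 in 82CHAT, against 718, 679 and 521 in WT, and was 4.81-fold and 3.67-fold lower (adjusted p = 1.52e-05 and 4.67e-05). BCL9, a beta-catenin partner, was 1.64-fold higher in each line, and NLK, a kinase that acts on TCF factors, was 1.43-fold and 1.53-fold lower. SMARCA4, a chromatin remodeller, was 1.53-fold and 1.52-fold higher by its brightest probe set. Its probe sets differed by 0.14 to 0.73 in 69CHAT and 0.10 to 0.69 in 82CHAT, and some of them were not called. Reported beta-catenin target genes had 2 of 16 higher and 3 lower in each line (median difference -0.03 and 0.05). MYC read 33.0, 35.9 and 33.5 in 69CHAT and 33.9, 34.0 and 32.4 in 82CHAT, against 233, 124 and 229 in WT (adjusted p = 5.55e-05 and 5.18e-05), so both lines were near background. JAG1, a Notch ligand, was 3.10-fold and 4.98-fold lower by its brightest probe set, with 1 of its 4 probe sets near 0. BAMBI, a pseudoreceptor that dampens TGF-beta signals, was 2.05-fold and 2.16-fold lower. TCF4, a helix-loop-helix gene whose symbol is also an older name of TCF7L2, read 2140, 2798 and 2696 in 69CHAT and 2514, 2468 and 2244 in 82CHAT, against 532, 533 and 573 in WT (4.63-fold and 4.41-fold higher, adjusted p = 2.12e-06 and 2.65e-06). The other higher target was CCND1, the cyclin D1 gene, named after its values were seen, at 553, 1465 and 1622 in 69CHAT and 983, 1701 and 1788 in 82CHAT, against 206, 352 and 326 in WT (adjusted p = 0.00915 and 0.00354). Members of this list thus moved both ways. Between the lines 0 of the 72 genes were called by limma, where 0% of all probe sets were.

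**Figure D5:**
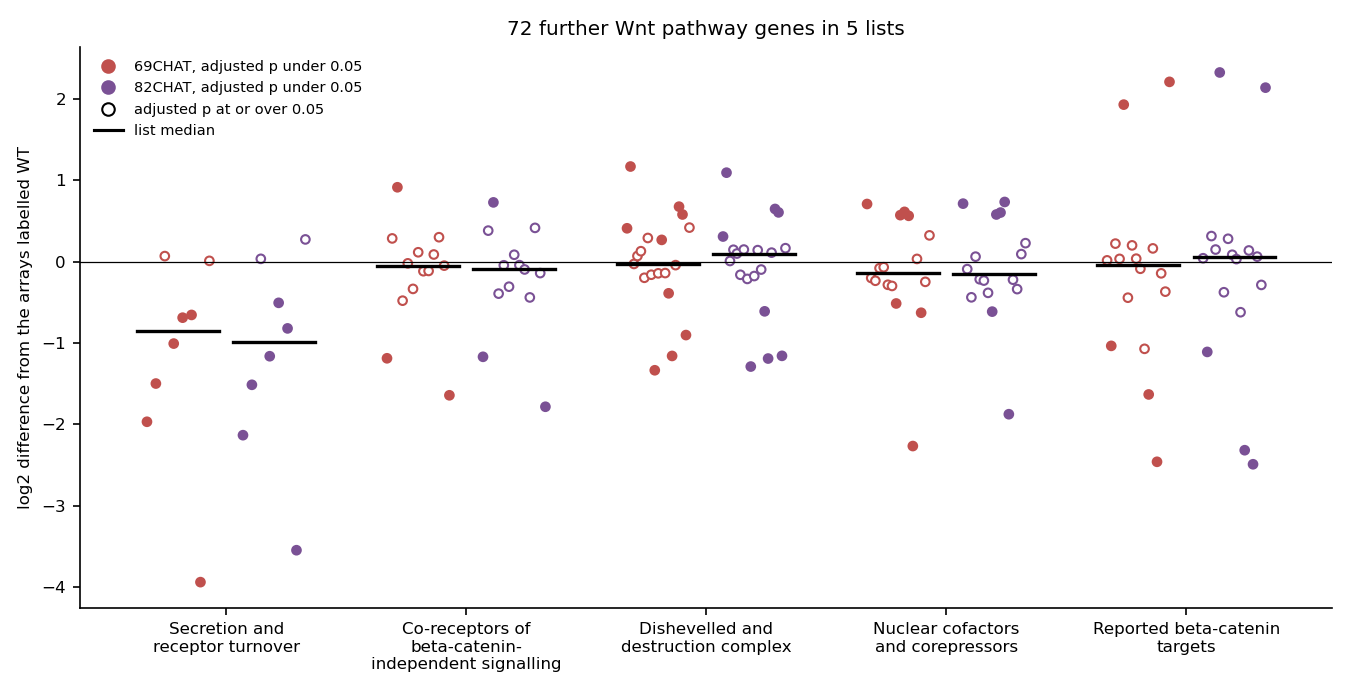
Log2 differences from the arrays labelled WT of 72 further Wnt pathway genes in 5 lists, for 69CHAT and 82CHAT (n = 3 arrays each), with a bar at each list's median. Filled points have a limma adjusted p under 0.05. The secretion and turnover list has medians of -0.85 and -0.99, and the other lists lie between -0.15 and 0.10.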

How the data were processed

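Gene expression was measured on 9 single-channel oligonucleotide arrays (3 per group, from the sample titles). The authors made the intensity values with RMA, per the submitters' processing notes, and they lie on a linear scale. RMA corrects background, normalizes between arrays and summarises probe sets. The sources used here give neither its version nor the step back from log2. Array medians were 133.7 to 142.7. Between 107 and 1117 probe sets had equal values on a given pair of arrays, while 0 pairs of arrays were identical.

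Of 22283 probe sets, 68 AFFX controls were left out. The platform annotation gave 1 gene symbol to 19065 probe sets, several to 1043 and none to 2107, and only the first were named. All 37 Entrez identifiers matched RefSeq and no symbol changed. Columns of other samples numbered 0. The log2 of each value, with no pseudocount or filter, entered limma 3.58.1 under R 4.3.3 (lmFit on 3 groups, eBayes, two-sided, Benjamini-Hochberg over 22215 probe sets per contrast). The fit was tested on simulated data. The number of arrays limits precision. The p-values set each difference against the spread among the arrays within a group, and hold nothing on the spread between independent lines of a form. Genes given on every array are those called in any contrast, or the brightest of a role group with none. Up to 4 genes per further list were named, by smallest adjusted p. The genes, lists and alternatives were chosen with earlier results of these data known.

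Same-numbered arrays of different groups deviated together from their group means (r of 0.278 to 0.573 in all 9 pairs), so replicate number was also tried as a block. The pairing comes from the titles' numbers and this check. Replicates 2 and 3 of different groups also correlated (0.209 to 0.475), and replicate 1 with either at -0.594 to -0.279, so the number mainly parts replicate 1 from the others. Other alternatives were scaling, a pseudocount of 1 or 16, removal of dim probe sets, other choices of probe set, variance models, array weights, fewer arrays and stricter thresholds.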

Additional observations from a re-analysis of the deposited data

How the results depend on the processing

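The 13 genes called in 69CHAT against WT numbered 10 to 13 when any array was left out, and the 14 in 82CHAT numbered 12 to 14. Further pathway genes called numbered 27 to 32 in each, and between the lines 0 to 1. The share of all probe sets called moved as well, from 20.1% to 30.3% in 69CHAT and from 21.1% to 29.7% in 82CHAT. Between the lines it was 0% to 0.162%. A replicate block called 15 and 16 of the 37 genes, including all 13 and all 14 (between the lines 0), where it called 36.5% and 38.2% of all probe sets, against 26.2% and 26.8% without it. The block changed no other call of the genes given on every array than those named in the report. Keeping only probe sets above the median mean level left 14 of the 37 genes, because dim genes were removed. Of these, 7 and 8 were called, with 18 and 18 of 50 further genes. Of the probe sets kept, 37.4% and 37.9% were called, against 26.2% and 26.8% without the filter. The mean was taken over all arrays. DKK1 and FRZB thus passed although their WT arrays lay under the array median, and WNT5A although the arrays of both lines did. Requiring 2-fold left 15 and 16 further genes, where 10.5% and 10.4% of all genes were called with such a difference. In replicates 2 and 3 alone 1 of the 37 and 3 of the further genes were called between the lines, where 2.04% of all probe sets were. Array weights stopped before converging and gave replicate 2 of 69CHAT and of 82CHAT weights of 59.4 and 61.1, against 0.0918 to 0.749 for the rest. They called 20 of the 37 genes in 69CHAT and 19 in 82CHAT, and 46 and 51 further genes, where 51.7% and 55.4% of all probe sets were called. Between the lines they called 28 and 54 genes and 74.2% of all probe sets, so these counts rest on those arrays. Under them DKK1 (0.31), FZD7 (-0.34) and WIF1 (0.034) turned direction between the lines, none of them called without weights. Calls of FZD3 in 82CHAT were also lost with median centring, renewed quantile normalization, a pseudocount of 16 and the trend setting (adjusted p = 0.0523 to 0.0928). The WNT6 call in 82CHAT was lost with renewed quantile normalization, the trend setting, only the 6 arrays compared, and replicates 2 and 3 alone (adjusted p = 0.0554 to 0.0726). Of 1020 repeats for the 16 genes given on every array, 968 kept their side of the threshold and 30 lost a call. These repeats include the comparison between the lines, where no call stood to be lost. They leave out the stricter thresholds and every repeat in which the gene had no probe set left. Calls lost in that way, in both lines, were FZD6, FZD10 and WIF1 under either filter on mean level, and FZD1, FZD7 and LEF1 under the median filter. FZD7, LEF1 and SFRP1 were lost without _x_at and _s_at probe sets.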
